A study of Mus musculus with 8 samples.

Results

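The miRNAs described here are those known for their abundance in red blood cells: mmu-miR-451a, the 2 arms of the miR-144 hairpin (mmu-miR-144-3p and mmu-miR-144-5p), and mmu-miR-486a-5p, mmu-miR-486a-3p and mmu-miR-486b-5p. They were chosen by name, but with earlier results of these data known, so their strain differences are a description and not an independent test. All 6 were found among the 422 miRNAs counted. Because mmu-miR-486a-5p and mmu-miR-486b-5p had identical counts in every library, there were 5 distinct sets of counts under the 6 names. The small RNA libraries came from hippocampi of 4 BTBR and 4 B6 mice, male and 12 weeks old, with 1 mouse per library. BTBR mice are inbred and serve as a model of autism without a known single cause, and B6 (C57BL/6J, called WT in the sample titles) is the control strain. Neither group carried a transgene or received a treatment according to the labels and methods. The groups are whole inbred strains, so a difference between them cannot be assigned to 1 gene. The methods describe decapitation under anaesthesia and dissection by punching of brain slices, and name no perfusion, so blood held in the tissue may be part of what was sequenced.

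miR-144 and miR-451a are cut from 1 primary transcript, which the erythroid factor GATA1 activates and which accumulates during the maturation of red blood cells. miR-451a is unusual among miRNAs in that its short hairpin is not cut by Dicer but by Ago2, so that it yields a single mature product. miR-486 lies in Ank1, the gene of ankyrin-1, which anchors the red cell membrane to its skeleton, and is also expressed in heart and skeletal muscle. Mature red cells have no nucleus but keep a large store of these miRNAs, and their levels in plasma are used as a sign of haemolysis.

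The mature sequences on which these roles rest are given 5′ to 3′ from RefSeq (GRCm38.p6), which matched 3 of the 6 members, with the seed, bases 2 to 8, in capitals because it decides which transcripts a miRNA pairs with.
miR-451a: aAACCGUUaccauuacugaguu
miR-144-3p: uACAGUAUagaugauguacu
miR-144-5p: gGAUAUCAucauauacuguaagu
These seeds differ from each other, and among the 367 miRNAs of the count table with a RefSeq sequence, 0 others carried any of them. The products of the cluster therefore share no seed with each other or with those miRNAs.

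The hairpins are shown next because they display how differently the products are placed, with the mature products in capitals.
Mir144: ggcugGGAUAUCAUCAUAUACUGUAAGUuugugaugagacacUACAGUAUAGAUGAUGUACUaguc
Mir451a: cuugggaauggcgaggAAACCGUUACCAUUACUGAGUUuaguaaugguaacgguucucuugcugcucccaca
In the fold predicted by RNAfold, miR-144-5p (positions 6 to 28 of 66) and miR-144-3p (positions 43 to 62) lay on either side of the terminal loop with 0 bases in it. In contrast, miR-451a (positions 17 to 38 of 72) ran through the loop with its last 4 bases. Mir144 is annotated on the plus strand at chr11:78073005-78073070 (GRCm38) and Mir451a at chr11:78073170-78073241, with 99 bases between them. Both are intergenic, the nearest coding gene being Eral1, 135 bases from Mir451a, and Mir451b is annotated on the minus strand over the same span as Mir451a. Mir486 is annotated on the plus strand at chr8:23142555-23142682, within an intron of Ank1, which is transcribed from the same strand, and it also overlaps the antisense gene Gm15816.

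The libraries held between 2247482 and 7904990 reads counted on miRNAs. The 5 sets of counts together took 0.0268% to 0.101% of them in B6 mice and 0.0562% to 0.157% in BTBR mice, so the members were a small part of the hippocampal miRNAs in each strain. Levels below are CPM, counts scaled to library size after TMM normalization, which corrects for the depth and composition of each library. Strains were compared by the quasi-likelihood test of edgeR, Benjamini-Hochberg adjusted over 422 miRNAs, with a threshold of 0.1 on the adjusted p. Beside this, a two-sided exact permutation test of log2(CPM + 0.5) ran through all 70 ways to split the 8 mice, so that its smallest possible p is 0.0286. Within each strain the libraries differed from one another beyond sampling noise and were treated as separate replicates.

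All 6 members had a higher mean in BTBR than in B6 mice, with log2 differences from 0.87 to 1.38, but only miR-451a passed the threshold. The median log2 difference of the 6 members was 1.19, against 0.017 for all miRNAs, of which 215 of 422 lay above 0. The threshold called 1 of the 6 members higher in BTBR, against 1.18% of all miRNAs (5 of 422). An unadjusted p under 0.05 in that direction was found for 5 of the 6, which are 4 of the 5 sets, against 7.35% (31 of 422). In these bulk samples, more red cells or other cells of a type and more miRNA per cell cannot be told apart.

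**Figure D1:**
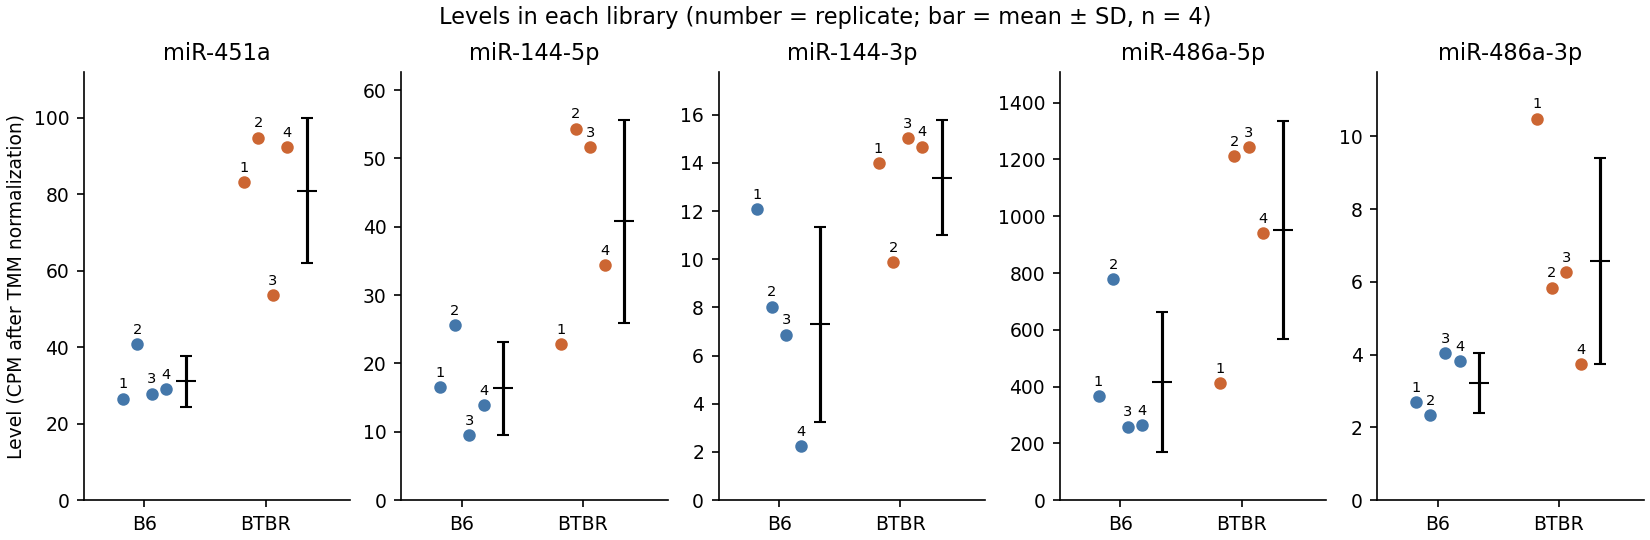
Level of each set of counts in CPM after TMM normalization, on linear axes that start at 0, for the 4 B6 and the 4 BTBR mice. Points are libraries with their replicate number, and the bars give the mean and SD (n = 4). All BTBR points lie above all B6 points in the miR-451a panel alone.

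miR-451a, the product cut by Ago2, was measured at 26.5, 40.8, 27.9 and 29.0 CPM in B6 replicates 1 to 4 and at 83.0, 94.7, 53.6 and 92.3 CPM in BTBR replicates 1 to 4. The lowest BTBR value exceeded the highest B6 value, a separation in this direction that 1 of the 6 members and 3.32% of all miRNAs (14 of 422) showed. B6 mice averaged 31.0 ± 6.60 CPM and BTBR mice 80.9 ± 18.9 CPM (SD, n = 4 each). miR-451a rose 2.60-fold (log2 fold change 1.38, standard error 0.26, edgeR adjusted p = 0.0339), and the exact permutation test gave its smallest p of 0.0286. Its p was the third smallest of the 422 miRNAs. The values rest on 129 to 767 reads per library. When BTBR replicate 4 was left out, it no longer passed (log2 fold change 1.24, edgeR adjusted p = 0.125).

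miR-144-5p, often called the passenger arm of its hairpin, stood at 16.5, 25.6, 9.49 and 13.9 CPM in B6 replicates 1 to 4. The 4 BTBR values were 22.8, 54.3, 51.6 and 34.4 CPM. The groups overlapped at one point, since B6 replicate 2 was above BTBR replicate 1. The means of 16.4 ± 6.79 and 40.8 ± 14.9 CPM (SD, n = 4 each) gave a log2 difference of 1.31 with a standard error of 0.37, which missed the threshold (edgeR adjusted p = 0.168) and had an exact permutation p of 0.0571. This call depended on the test, since edgeR's exact test and DESeq2 gave log2 differences of 1.31 with adjusted p-values of 0.0581 and 0.0263. It also depended on 1 mouse, since without B6 replicate 2 the log2 difference was 1.65 (edgeR adjusted p = 0.0679).

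miR-144-3p, the arm known to repress targets in erythroid cells, was the less abundant arm in these libraries. It was found at 12.1, 8.03, 6.86 and 2.25 CPM in B6 and at 14.0, 9.88, 15.0 and 14.7 CPM in BTBR replicates 1 to 4. The lowest value, of B6 replicate 4, stands for 10 reads, and B6 replicate 1 was above BTBR replicate 2. The log2 difference was 0.87 with a standard error of 0.44 (edgeR adjusted p = 0.521; exact permutation p = 0.0571), from means of 7.31 ± 4.05 and 13.4 ± 2.38 CPM (SD, n = 4 each). Without B6 replicate 4 it was 0.56 (edgeR adjusted p = 0.766).

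miR-486a-5p was by far the most abundant member, ranking 99th of the 422 miRNAs by its mean in B6 and 69th in BTBR mice, while miR-451a ranked 226th and 178th. Its levels, which are also those of miR-486b-5p, were 367, 778, 258 and 264 CPM in B6 replicates 1 to 4. In BTBR replicates 1 to 4 they were 411, 1212, 1244 and 941 CPM. Of the BTBR mice, 3 were above all B6 mice, while BTBR replicate 1 lay within the B6 range, below B6 replicate 2. The means of 417 ± 246 and 952 ± 385 CPM (SD, n = 4 each) differed by 1.19 on the log2 scale with a standard error of 0.41, which missed the threshold (edgeR adjusted p = 0.254; exact permutation p = 0.0571). Without B6 replicate 2 the log2 difference was 1.72 and passed it (edgeR adjusted p = 0.0497). Reads of these copies cannot be assigned to 1 of them, and whether such reads were divided or counted for both is not given in the sources used here.

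miR-486a-3p, the other arm, was the least abundant member, with 13 to 51 reads per library. Its levels were 2.69, 2.34, 4.04 and 3.82 CPM in B6 and 10.5, 5.84, 6.26 and 3.73 CPM in BTBR replicates 1 to 4. BTBR replicate 1, the lowest BTBR mouse for the 5p arm, was the highest for the 3p arm, and BTBR replicate 4 lay within the B6 range. The means of 3.22 ± 0.833 and 6.58 ± 2.83 CPM (SD, n = 4 each) differed by 1.03 on the log2 scale with a standard error of 0.45 (edgeR adjusted p = 0.451; exact permutation p = 0.0857).

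**Figure D2:**
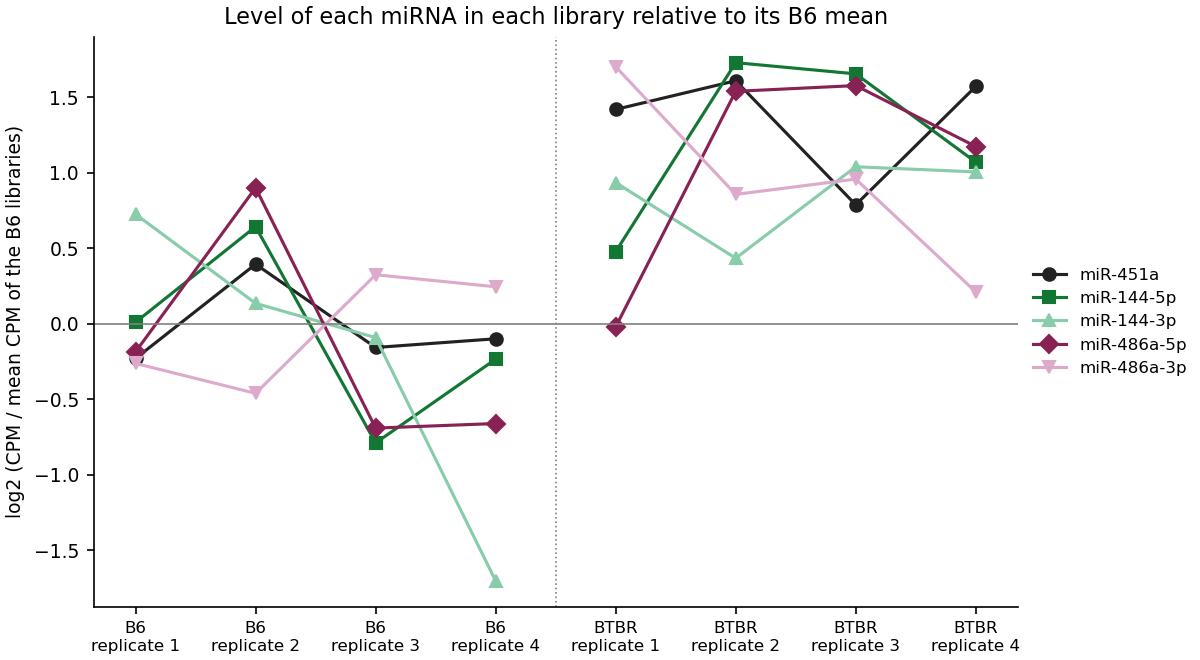
Level of each set of counts in each library relative to its own B6 mean, as log2 of the CPM ratio, with lines joining the values of 1 miRNA within a strain as a guide to the eye. miR-486a-5p, miR-144-5p and miR-451a have their highest B6 value in replicate 2. Among BTBR mice, miR-486a-5p and miR-144-5p are lowest in replicate 1 and miR-451a in replicate 3.

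Ratios of read counts within a library need no normalization between libraries, and show whether the members kept the same proportions in both strains. A ratio between different miRNAs is one of reads and not of molecules, because the yield of library preparation differs between sequences. Of the 10 ratios among the 5 sets of counts, 0 had a p under 0.05 in the two-sided exact permutation test (p from 0.457 to 0.914, Benjamini-Hochberg adjusted p = 0.914 for each). The log2 differences between strains were 0.04 to 0.40 in size, smaller than those of the members themselves, but of the 5 ratios described below, 4 had intervals that reached beyond 1 on the log2 scale. Each is a 97.1% interval from the exact ranks of the 4 and 4 libraries.

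The ratio of miR-451a to miR-144-5p, 2 products of the same transcript, was 1.60, 1.59, 2.94 and 2.08 in B6 replicates 1 to 4 and 3.64, 1.74, 1.04 and 2.68 in BTBR replicates 1 to 4. The BTBR libraries held both the highest and the lowest ratio. The log2 difference of BTBR from B6 was 0.04 with a standard error of 0.44 (interval −1.50 to 1.19; exact permutation p = 0.914). The ratio of miR-451a to miR-486a-5p was 0.0723, 0.0525, 0.108 and 0.110 in B6 and 0.202, 0.0782, 0.0431 and 0.0981 in BTBR mice. Its extremes were the same BTBR replicates, 1 and 3, and the log2 difference was 0.14 (interval −1.35 to 1.95; exact permutation p = 0.857).

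The ratio of miR-144-5p to miR-486a-5p, members from different chromosomes, was the most even. It was 0.0450, 0.0329, 0.0367 and 0.0528 in B6 and 0.0555, 0.0448, 0.0415 and 0.0366 in BTBR mice, so that the highest was 1.69 times the lowest over all 8 libraries. The other 9 ratios spanned 3.50-fold to 8.47-fold. Those with miR-144-3p or miR-486a-3p include libraries with as few as 10 or 13 reads, so counting error widens their spans. The ratios of miR-451a to miR-144-5p and to miR-486a-5p, which hold neither, spanned 3.50-fold and 4.69-fold. The log2 difference of the ratio of miR-144-5p to miR-486a-5p, 0.10, had a standard error of 0.20 and an interval from −0.53 to 0.75 (exact permutation p = 0.657).

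**Figure D3:**
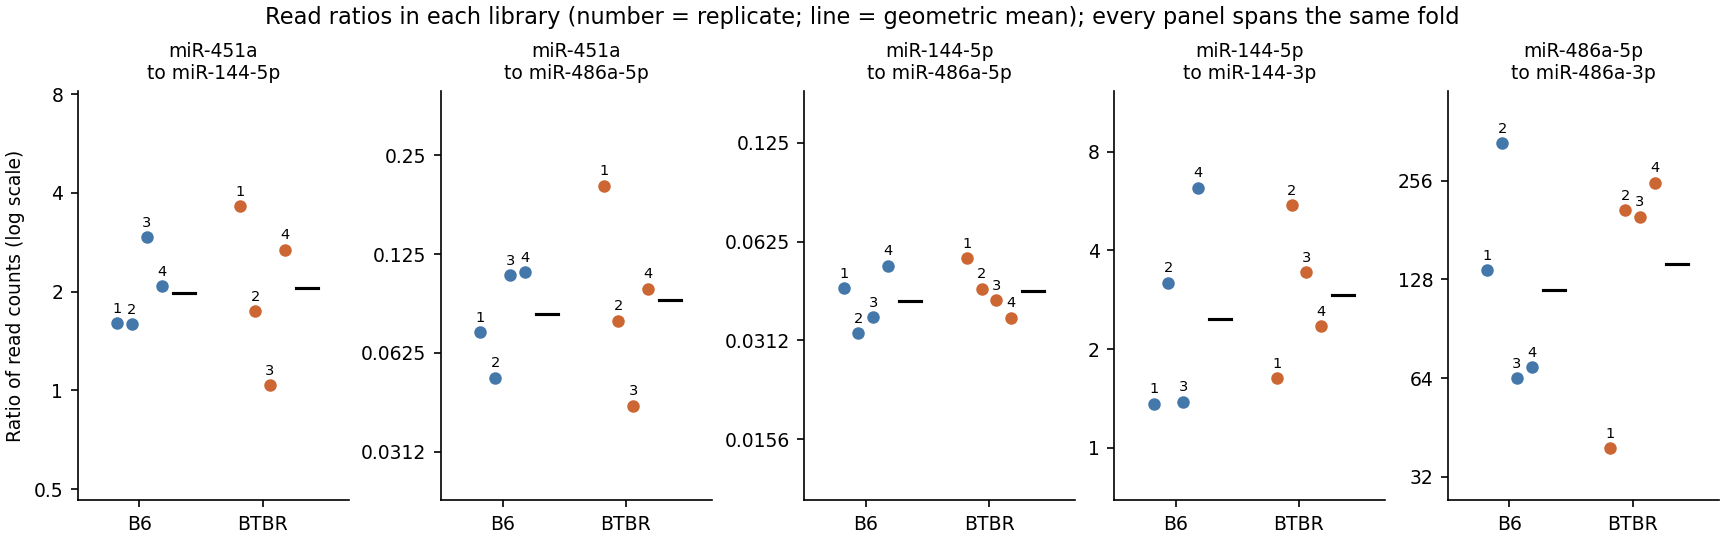
Ratio of read counts in each library for 5 of the 10 pairs, on log2-spaced axes that cover the same fold range in every panel. Points carry the replicate number and lines mark the geometric mean of each strain. The strains overlap in every panel, and the panel of miR-144-5p to miR-486a-5p has the narrowest spread, 1.69-fold.

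The ratio of the arms describes which strand of a hairpin is kept. For miR-144, reads of the 5p arm outnumbered those of the 3p arm in all 8 libraries, by 1.37, 3.19, 1.38 and 6.20 times in B6 and by 1.63, 5.50, 3.43 and 2.34 times in BTBR replicates 1 to 4. The log2 difference between strains was 0.24 (interval −1.93 to 2.01; exact permutation p = 0.714). Within B6 mice, the share of the 5p arm was 57.7% in replicate 1 (95% exact binomial interval 49.4% to 65.8%) and 86.1% in replicate 4 (75.9% to 93.1%). Within BTBR mice it was 62.0% in replicate 1 (54.5% to 69.1%) and 84.6% in replicate 2 (77.6% to 90.1%). Mice of the same strain thus differed by more than counting error, which is all that such intervals cover, since the reads carry no molecular identifiers.

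For miR-486a the 5p arm made up nearly all reads, with 136, 332, 64.0 and 69.1 reads per read of the 3p arm in B6 and 39.2, 208, 199 and 252 in BTBR replicates 1 to 4. The 5p reads are those shared with miR-486b-5p, so the level of these ratios depends on how shared reads were counted and from which copy they came. The log2 difference between strains was 0.26 (interval −3.08 to 1.98; exact permutation p = 0.8). The 3p arm took 2.49% of the reads of the hairpin in BTBR replicate 1 (95% exact binomial interval 1.86% to 3.26%), against 0.395% to 0.501% in the other BTBR mice, whose intervals reached 0.818% at most. In B6 mice the share was 0.300% to 1.54%. Among the 99 hairpins with both arms counted, 2.02% (2 hairpins, miR-140 and miR-411, named after their values were seen) had an arm ratio that differed between strains at an unadjusted exact permutation p under 0.05. By its spread within strains, the arm ratio of miR-486a ranked 9th and that of miR-144 23rd of these 99, with SDs of 1.18 and 0.92 on the log2 scale against a median of 0.62. Both have an arm with few reads, a mean of 23.1 for miR-486a-3p and 53.4 for miR-144-3p, and the 44 hairpins whose lower arm had a mean under 60 reads, a limit set after seeing the data, had a median SD of 0.86 and a highest of 2.31.

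Covariation was examined after subtracting the mean of each strain from log2(CPM + 0.5), so that the strain difference itself does not enter, with mice permuted within strains in all 576 ways. Of the 10 pairs, miR-144-5p and miR-486a-5p alone had an adjusted p under 0.1. Their Pearson's r was 0.94 over the 8 libraries (exact permutation p = 0.00347, adjusted p = 0.0347 over 10 pairs) and Spearman's rho 0.90 (exact permutation p = 0.00521, adjusted p = 0.0521). Without B6 replicate 2 and BTBR replicate 1, the libraries farthest from the median of miR-144-5p, r was 0.86 over 6 libraries with an exact permutation p of 0.0556. A value of r this high was uncommon but not particular to the pair. Of 316 miRNAs with a mean of at least 10 CPM, 7 had an r of at least 0.9 with miR-486a-5p, and miR-144-5p ranked 3rd among them.

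For miR-451a, covariation with the other members within strains was not detectable at this number of mice. Its r was 0.16 with miR-144-5p (exact permutation p = 0.724, adjusted p = 0.845), with a rho of 0.29 (exact permutation p = 0.54, adjusted p = 0.646), and 0.22 with miR-486a-5p (exact permutation p = 0.759, adjusted p = 0.845), with a rho of 0.29 (exact permutation p = 0.582, adjusted p = 0.646). These values depended on single mice and on the scaling. Without BTBR replicate 3 and B6 replicate 2 they were 0.56 and 0.64 (exact permutation p = 0.389 and 0.306, 6 libraries), without B6 replicate 2 alone they were −0.28 and −0.27, and without BTBR replicate 3 alone 0.73 and 0.82 (exact permutation p = 0.0833 and 0.0625). Scaled by library size only, they were 0.45 and 0.51 over the 8 libraries (exact permutation p = 0.316 and 0.215). By r within strains, miR-144-5p ranked 100th of 316 miRNAs in likeness to miR-451a.

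The arms of miR-486a had a negative correlation that did not pass the test. Their r was −0.75 (exact permutation p = 0.0781, adjusted p = 0.391) and rho −0.71 (exact permutation p = 0.0972, adjusted p = 0.486). Without BTBR replicate 1 and B6 replicate 2, the libraries farthest from the median of miR-486a-5p, r was 0.02 (exact permutation p = 0.889, 6 libraries). Without BTBR replicate 1 alone it was −0.49 and without B6 replicate 2 alone −0.72. Scaled by library size only, r was −0.51 over the 8 libraries (exact permutation p = 0.198). For the arms of miR-144, r was 0.09 (exact permutation p = 0.858). The remaining 5 pairs had r from −0.61 to 0.24, each with an exact permutation p of at least 0.125.

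**Figure D4:**
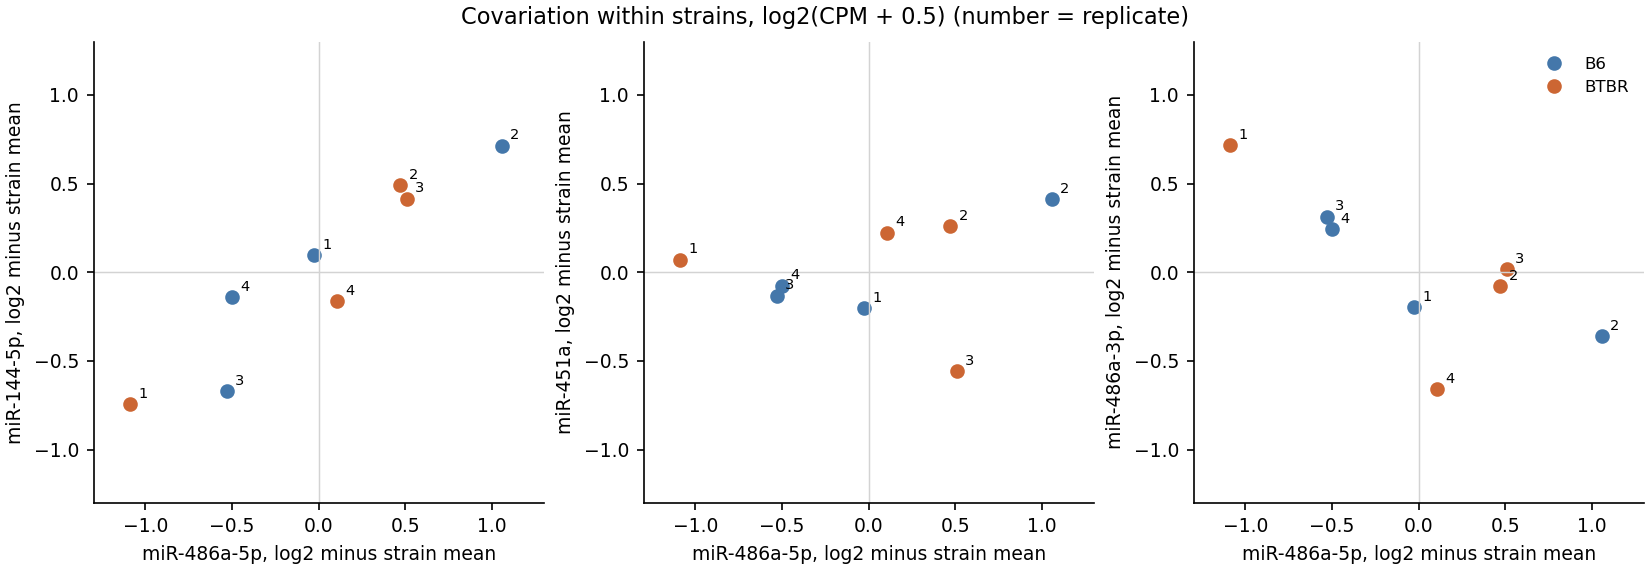
Deviation of each library from its strain mean on the log2(CPM + 0.5) scale, with miR-486a-5p on the x axis and miR-144-5p, miR-451a and miR-486a-3p on the y axes. Colours mark the strains and numbers the replicates. The points of miR-144-5p rise along a line (r = 0.94), those of miR-451a are scattered (r = 0.22), and those of miR-486a-3p fall (r = −0.75).

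The miRNAs whose level was most like that of a member are given as a description, without a test, from 313 miRNAs with a mean of at least 10 CPM. Over the 8 libraries, which include the strain difference, the highest r with miR-451a were those of miR-200c-3p (0.92), miR-193b-3p (0.88), miR-154-5p (0.88), miR-300-3p (0.86) and miR-369-5p (0.82). After subtracting the strain means these became 0.08, 0.92, 0.37, 0.40 and 0.83. The likeness of miR-200c-3p, an epithelial miRNA that rose from 5.04 to 60.7 CPM, was thus mostly one of strain means. The highest r with miR-486a-5p were those of miR-1251-5p (0.95), miR-23a-3p (0.95), miR-34a-5p (0.93), miR-154-5p (0.92) and miR-146b-5p (0.91), and these stayed at 0.85 to 0.96 within strains. Libraries share their depth and composition across all miRNAs, which may enter each of these values, and its part was not tested.

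Haemolysis of plasma is commonly read from miR-451a relative to miR-23a-3p, a miRNA that red cells hold in small amounts. The log2 ratio of their reads was −2.05 ± 0.25 in B6 (SD, n = 4; −2.32 to −1.81) and −1.10 ± 0.65 in BTBR mice (SD, n = 4; −2.05 to −0.57). The difference of 0.95 had an exact permutation p of 0.0857, and BTBR replicate 3 was within the B6 range. With 1 mouse left out in turn, alternatives added after seeing the data, the difference was 0.77 to 1.26. In hippocampus the reference was not independent of miR-486a-5p, since miR-23a-3p was among the miRNAs most like it. The mean of miR-23a-3p was 132 CPM in B6 against 173 in BTBR mice (log2 difference 0.39, edgeR adjusted p = 0.655).

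Markers of other blood components and of the cells of the tissue were compared in the same fit, and 0 of their 27 measured miRNAs passed the threshold. Of the leukocyte list, 4 of 5 were counted, with miR-223-3p not among the counted miRNAs. Their summed level was 444 to 508 CPM in B6 and 422 to 712 CPM in BTBR mice, with a median log2 difference of 0.19. The log2 difference was above 0 for 4 of 4, and 0 of 4 had an unadjusted p under 0.05. The vascular and platelet miRNAs miR-126a-3p and miR-126a-5p summed to 2719 to 3365 CPM in B6 and 1740 to 3182 CPM in BTBR mice. Their median was −0.15, with 0 of 2 above 0 and 0 of 2 at that p. For the liver and plasma list, with 2 of 3 above 0 and 0 of 3 at that p, the sums were 1663 to 2409 and 1657 to 2349 CPM and the median 0.02. Its defining marker miR-122-5p had means of only 8.82 and 13.7 CPM (log2 difference 0.61, standard error 0.45, edgeR adjusted p = 0.664).

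A further list holds miRNAs that are abundant in red cells but made in many tissues. Of these, 0 of 9 had an unadjusted p under 0.05, 2 of 9 had a log2 difference above 0, and the median was −0.10. The list summed to 30550 to 41594 CPM in B6 and 23908 to 40221 CPM in BTBR mice, and its leading marker miR-16-5p had means of 7978 and 7419 CPM, far above those of the members. The tissue itself was recognised by its neuronal miRNAs, of which 5 of 5 were counted, with sums of 51640 to 80541 and 60191 to 72878 CPM. Their median was 0.06, with 3 of 5 above 0 and 0 of 5 at that p.

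The choroid plexus list had the median farthest from 0 of the 6 lists. Of its 4 miRNAs, 3 had an unadjusted p under 0.05 in the direction of lower levels in BTBR, 0 passed the threshold, and the median log2 difference was −2.40, while the fourth, miR-211-5p, had a log2 difference of 0.91. Of all 422 miRNAs, 15 were lower in BTBR at that p and 2 passed the threshold as lower. The choroid plexus list summed to 4199 to 30086 CPM in B6 and 2753 to 7777 CPM in BTBR mice. B6 replicate 1 held the highest sum, and without this mouse, an alternative added after seeing the data, the median was −1.16 with 1 of 4 at that p. Without B6 replicate 3 or 4 it was −2.73 and −2.76, and 1 and 2 of the 4 miRNAs passed the threshold as lower in BTBR. How many of all miRNAs passed without these mice is not given here. The exact permutation p of the 4 miRNAs was 0.2 to 0.286. Of the members in B6 replicate 1, miR-451a (26.5 CPM), miR-486a-5p (367 CPM) and miR-486a-3p (2.69 CPM) were below their B6 means, miR-144-5p (16.5 CPM) was 1.01 times its B6 mean, and miR-144-3p (12.1 CPM) was 1.65 times its B6 mean and the highest B6 value. The part of blood content, and of tissue taken up with the hippocampus, in the strain differences of the members was not tested.

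**Figure D5:**
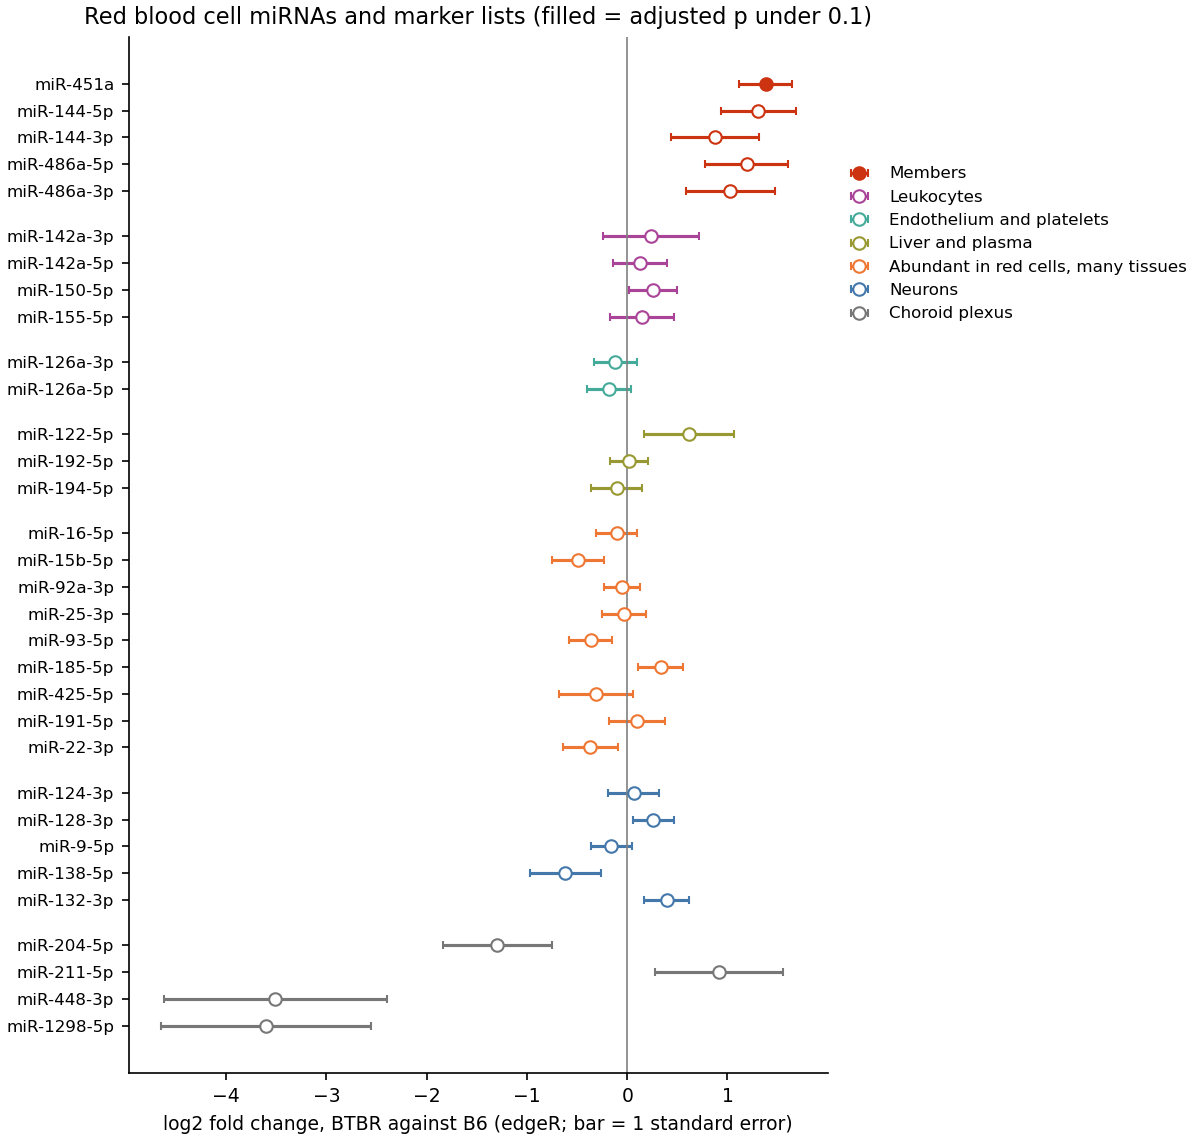
Log2 fold change of BTBR against B6 for the 5 sets of counts and for the 27 measured markers of 6 lists, from edgeR's quasi-likelihood fit, with bars of 1 standard error. Filled points have an adjusted p under 0.1, which holds for miR-451a alone. The 5 sets of counts lie between 0.87 and 1.38. The list medians lie between −2.40 (choroid plexus) and 0.19 (leukocytes). Single markers can lie far from the median of their list, as do miR-211-5p (0.91, within the range of the 5 sets) and miR-122-5p (0.61).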

How the data were processed

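According to the labels and methods, the authors removed adapters, aligned the reads to GRCm38 with Bowtie through sRNAbench, checked quality with FastQC 0.11.2, gave each read inside a miRBase annotation to that miRNA, and deposited raw counts for 422 miRNAs without normalization. Total counts were 5078301 to 5792967 in B6 and 2247482 to 7904990 in BTBR libraries, so that the lowest member counts, of 10 to 20 reads, carry wide counting errors. No miRNA was left out. edgeR 4.0.16, limma 3.58.1 and DESeq2 1.42.0 were run in R 4.3.3, and permutation tests in Python 3.11.15 with scipy 1.17.1. The main edgeR fit used TMM and the quasi-likelihood test without covariates, with adjusted p under 0.1, the cutoff the study applied to miRNAs. Figures were drawn with matplotlib 3.10.9 and hairpins folded with RNAfold 2.7.2. The standard error is the size of a log2 fold change divided by the square root of F. Loci come from the GENCODE annotation of GRCm38. The members and marker lists were chosen with earlier results of these data known. The named miRNAs are all members, the leading markers of lists, and the 5 miRNAs each most like miR-451a and miR-486a-5p. Exceptions are miR-140, miR-411 and miR-211-5p, chosen once their values were known. Lists served as descriptions, by counts and medians. Each library is 1 mouse. Alternatives were other tests, normalizations, filters, the replicate number as a block, and each mouse left out in turn.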

Additional observations from a re-analysis of the deposited data

Results flagged for a closer look

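In the 30 groups of 4 libraries examined (the levels and ratios of the 5 sets of counts in each strain), 2 values lay apart from the other 3 of their group by Dixon's criterion, where chance marks about 1 in 20 groups. Both came from BTBR replicate 1, and both have miR-486a-3p as the denominator. The ratio of miR-486a-5p to miR-486a-3p was 39.2 in that mouse, against 199 to 252 in the other BTBR mice. The ratio of miR-144-5p to miR-486a-3p was 2.18, against 8.24 to 9.31. In that library miR-486a-3p had 51 reads, miR-486a-5p had 2000 and miR-144-5p had 111.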

How the results depend on the processing

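The direction of each member's strain difference held under all alternatives run. The number of members past the threshold, 1 in the analysis reported, was 2 with edgeR's exact test, 2 with DESeq2, and 0 to 4 with 1 mouse left out (0 without BTBR replicate 4, and 4 names, which are 3 sets of counts, without B6 replicate 2). The number of all miRNAs called under each alternative is not given here, so these counts cannot be set against a share of all miRNAs. miR-451a passed in 16 of 18 alternatives, with log2 fold changes of 1.24 to 1.57 when a mouse was left out. miR-144-5p gave 1.31 with both edgeR's exact test and DESeq2, where it passed, and 1.07 to 1.65 with a mouse left out. For miR-486a-5p that range was 0.97 to 1.72. With a mouse left out miR-144-3p ranged from 0.56 to 1.17 and miR-486a-3p from 0.69 to 1.18, and both missed the threshold in each of their 18 and 17 alternatives, a filter of a mean count of at least 50 having removed the latter.

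With 1 mouse left out, the strain difference changed sign for 8 of the 10 ratios. The log2 difference ranged from −0.23 to 0.37 for miR-451a to miR-144-5p, from −0.24 to 0.50 for miR-451a to miR-486a-5p, from −0.067 to 0.68 for miR-144-5p to miR-144-3p, from −0.012 to 0.22 for miR-144-5p to miR-486a-5p and from −0.042 to 0.88 for miR-486a-5p to miR-486a-3p. The others that changed sign were miR-451a to miR-144-3p (−0.11 to 0.75), miR-144-3p to miR-486a-5p (−0.53 to 0.19) and miR-144-3p to miR-486a-3p (−0.47 to 0.51). The count of ratios with a p under 0.05 was 0 in the 10 alternatives that could give such a p (the replicate block could not, its smallest p being 0.125). The count of covarying pairs with a p under 0.05 was 1 to 3, with 3 when BTBR replicate 4 was left out, where r of the miR-486a arms was −0.95 (exact permutation p = 0.0208). The r of miR-451a ranged from −0.28 to 0.73 with miR-144-5p and from −0.27 to 0.82 with miR-486a-5p, and that of miR-144-5p with miR-486a-5p was 0.90 to 0.96 in 10 alternatives. For miR-451a to miR-23a-3p the exact permutation p was 0.0857 to 0.114 when a mouse other than BTBR replicate 3 was left out. Leaving out BTBR replicate 3, the 1 BTBR mouse in the B6 range, gives the smallest p possible by construction, 0.0286. With the replicate block p was 0.25, where the smallest possible p is 0.125. The median of the choroid plexus list was −2.76 to −1.16 with a mouse left out, with 0 to 2 of its miRNAs past the threshold. The cause of these changes was not tested.

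Libraries with the same replicate number did not deviate together (r of their deviations 0.052, −0.069, −0.151 and −0.146), so the numbers do not pair the mice. With the replicate block, 0 members passed, miR-451a having a log2 fold change of 1.37 (edgeR adjusted p = 0.104), and the block changed no other call. Depth limits miR-144-3p and miR-486a-3p most, with 10 and 13 reads in their lowest libraries.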
